A study of Homo sapiens with 10 samples.

Results

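The tripartite motif (TRIM) genes are the family of ubiquitin ligases in which a RING finger, B-box zinc fingers and a coiled coil follow one another at the N terminus. They were taken here as every protein-coding gene in both deposited tables whose symbol is TRIM followed by a digit, which gave 77 members of 19975 protein-coding genes and 60603 genes in all. The cells were NB4, an established human acute promyelocytic leukemia line that carries the PML-RARA fusion. In the knockdown experiment they were transduced with the empty lentiviral vector (EV) or with one of the hairpins shA1 and shB2 against GSE1, a chromatin cofactor of the demethylase LSD1, and RNA was collected 48 h later from 2 libraries of each of the 3 groups. In the inhibitor experiment they were treated for 24 h with DMSO as vehicle or with 2 µM of the LSD1 inhibitor MC2580, with 2 libraries of each of the 2 groups. The labels do not say whether libraries of a group came from separate cultures. The paper describes them as biological replicates, 2 per condition.

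The value used for each gene was the base mean, the authors' mean of normalized read counts over all libraries of an experiment, 6 in the knockdown and 4 in the inhibitor experiment. Treated and control libraries are pooled in it, so it has no spread, and no difference between a hairpin and EV, or between MC2580 and DMSO, is given. Base means summed to 40543130 in the knockdown and 41201112 in the inhibitor experiment, and the depth of each single library is unknown. Levels below are base means scaled to parts of 1000000 of that sum and divided by the exon length in kilobases, so that genes of different length can be compared. The experiments were normalized separately. They differ in treatment, time and vector as well, and these cannot be told apart in any value set across them. Since no spread is known, neighbors in an order of levels cannot be said to differ.

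A RING finger binds an E2 enzyme that carries ubiquitin, and the C-terminal domain, most often a PRY-SPRY domain, chooses the substrate. Many members with a PRY-SPRY domain act in innate immunity, where they restrict viruses or tag sensors and adaptors of the interferon response, and many are themselves induced by interferon. Members with a PHD finger and a bromodomain, the TIF1 group, work on chromatin. Others bind microtubules through a COS box, bind RNA or protein partners through NHL repeats, or act in the sarcomere.

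The promoters of 5 members are shown, because many antiviral members are known as interferon-induced genes and the response element is defined by its letters. Each runs from 250 bases before to 50 bases after the RefSeq transcript start (GRCh38.p14), read 5′ to 3′ on the strand of the gene. Capitals mark the core of the interferon-stimulated response element (ISRE), searched as 2 words GAAA with any 2 bases between them on either strand, so that the words can also appear as TTTC. TRIM21, TRIM26, TRIM34 and TRIM5 hold it. TRIM6, which neighbors TRIM34 and TRIM5 on chromosome 11, does not, and is shown beside them. TRIM25, TRIM38 and TRIM56 do not hold it either and are not shown.

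TRIM21, chr11:4393653-4393952, minus strand: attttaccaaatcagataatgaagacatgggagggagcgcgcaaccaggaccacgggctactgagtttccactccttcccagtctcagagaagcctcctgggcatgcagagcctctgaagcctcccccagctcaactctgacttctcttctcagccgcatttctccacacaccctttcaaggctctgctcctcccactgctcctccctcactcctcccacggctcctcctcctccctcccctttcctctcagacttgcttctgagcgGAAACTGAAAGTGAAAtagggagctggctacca
TRIM26, chr6:30213357-30213656, minus strand: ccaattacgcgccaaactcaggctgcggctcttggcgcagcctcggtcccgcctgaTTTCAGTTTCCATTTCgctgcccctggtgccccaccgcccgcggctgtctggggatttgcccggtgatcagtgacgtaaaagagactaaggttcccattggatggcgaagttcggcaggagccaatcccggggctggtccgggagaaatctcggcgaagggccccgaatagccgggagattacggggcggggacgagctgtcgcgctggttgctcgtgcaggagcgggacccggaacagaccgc
TRIM34, chr11:5624751-5625050, plus strand: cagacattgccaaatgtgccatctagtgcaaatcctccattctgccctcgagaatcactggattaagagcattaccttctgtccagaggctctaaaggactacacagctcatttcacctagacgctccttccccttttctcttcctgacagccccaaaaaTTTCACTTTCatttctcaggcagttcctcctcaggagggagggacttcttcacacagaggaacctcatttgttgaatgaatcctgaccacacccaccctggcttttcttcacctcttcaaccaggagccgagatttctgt
TRIM5, chr11:5685025-5685324, minus strand: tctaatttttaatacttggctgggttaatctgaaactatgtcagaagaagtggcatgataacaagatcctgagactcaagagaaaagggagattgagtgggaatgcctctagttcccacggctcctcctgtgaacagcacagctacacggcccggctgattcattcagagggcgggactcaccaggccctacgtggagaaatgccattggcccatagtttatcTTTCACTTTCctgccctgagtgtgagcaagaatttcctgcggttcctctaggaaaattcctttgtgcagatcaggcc
TRIM6, chr11:5596387-5596686, plus strand: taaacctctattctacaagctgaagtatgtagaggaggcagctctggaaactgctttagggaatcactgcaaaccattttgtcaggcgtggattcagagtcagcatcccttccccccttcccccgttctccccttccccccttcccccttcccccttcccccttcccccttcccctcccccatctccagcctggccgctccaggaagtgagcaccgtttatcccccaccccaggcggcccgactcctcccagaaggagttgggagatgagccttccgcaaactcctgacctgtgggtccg

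In TRIM21 and in TRIM26 the ISRE letters occur at 2 overlapping positions, which start 17 and 23 bases after the transcript start in TRIM21 and at -194 and -188 in TRIM26. The single match starts at -90 in TRIM34 and at -27 in TRIM5, and both read TTTCACTTTC. A match is a description of the letters and not evidence that a factor binds there.

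The cells were first compared with the markers of their label. Of 6 promyelocyte markers, 5 reached a base mean of 10 in both experiments, led by MPO, the myeloperoxidase of azurophil granules, at 506765 in the knockdown and 824818 in the inhibitor experiment. ELANE, neutrophil elastase, was near 0, at 1.10 and 3.87. Of the markers of other cell types reported here, CD3D (866 and 869), EPCAM (432 and 403) and CD79A (121 and 116) reached 10 in both experiments and CD2 (13.1) and HBB (11.7) in the knockdown experiment. CD3E, MS4A1, HBA1 and KRT19 were at or near 0. Whether other cells add to any TRIM level was not tested.

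With detection set at a base mean of 10, 43 members were detected in each experiment, 42 in both and 33 in neither. This was 55.8% of the family, against 63.1% of all protein-coding genes in the knockdown and 63.0% in the inhibitor experiment. TRIM7, a ligase that binds glycogenin, was detected in the inhibitor experiment alone, at 18.9 against 7.63. The readthrough gene TRIM6-TRIM34 was detected in the knockdown experiment alone, at 10.3 against 7.67. Both lie close to the minimum, as does TRIM72 at 9.44 in the inhibitor experiment. Of the 33 members in neither, 17 were listed at 0 in both experiments and 16 were above 0 in at least 1 experiment.

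The family as a whole held 0.248% of all normalized reads in the knockdown and 0.247% in the inhibitor experiment. Its levels were very uneven. TRIM28 (KAP1), the corepressor that KRAB zinc finger proteins bring to chromatin, alone held 37.5% of the family's reads in the knockdown and 44.6% in the inhibitor experiment. The gene lies on chromosome 19 (GRCh38, chr19:58544064-58550722) on the plus strand. Its base means were 37748 and 45332, and its level of 216 and 256 was 10.6 and 12.6 times that of the next member, TRIM56. These multiples depend on exon length, 4306 bases for TRIM28 and 11131 for TRIM56. Base means of TRIM56 were 9179 and 9270, so the gap was smaller without division by length. By level TRIM28 stood at the 99.4th percentile of all protein-coding genes in both experiments. A total of 17 members had base means of 1000 or more in both experiments. The median level of the detected members was 4.22 in the knockdown and 2.74 in the inhibitor experiment, against 4.82 and 4.27 for all detected protein-coding genes. The medians of the members fell on different genes, TRIM41 and TRIM52, and so do not give a change per gene. The median of the ratios of inhibitor to knockdown level per member was 0.932.

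After TRIM28, the next members by the mean of both levels were TRIM56, TRIM8, TRIM65, TRIM14, TRIM25, TRIM21, TRIM4, TRIM35, TRIM24, TRIM11 and TRIM44. TRIM56, which acts in the sensing of viral RNA and cytosolic DNA, had a level of 20.3 in the knockdown and 20.2 in the inhibitor experiment. TRIM8, a regulator of NF-κB and STAT signaling, was at 16.6 and 14.3. TRIM65, a ligase for the RNA sensor MDA5, was at 11.9 and 18.5. All these levels lay far below that of TRIM28.

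Among the rest of these 12 members, TRIM4, another regulator of RNA sensing, had levels of 10.8 and 8.18. TRIM35, described in hematopoietic cells as HLS5, was at 8.71 and 8.83. TRIM11, which acts in protein quality control, was at 6.33 and 7.01. TRIM44, which has no RING finger and carries a zinc finger of the kind found in ubiquitin proteases, was at 7.91 and 5.16.

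All 11 members of the antiviral list were detected in both experiments. Their base means ran from 20.1 to 9179 in the knockdown and from 32.6 to 9270 in the inhibitor experiment, and the median level was 4.41 and 3.00. TRIM25, which ubiquitinates the RNA sensor RIG-I, had a level of 16.3 in the knockdown and 12.4 in the inhibitor experiment. TRIM14, a RING-less adaptor of the mitochondrial protein MAVS, was at 16.8 and 13.4. TRIM21, the cytosolic antibody receptor, was at 15.6 and 11.6. By level per kilobase of exon, these and TRIM56 were the highest 4 of the list. With the length of the canonical transcript, TRIM22 came before TRIM21. Base means were also higher for TRIM22 (1894 and 1554) and TRIM38 (1811 and 1017) than for TRIM21 (1225 and 924).

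TRIM38, a negative regulator of Toll-like receptor signaling, had a level of 4.74 in the knockdown and 2.62 in the inhibitor experiment. TRIM5, the restriction factor that recognizes retroviral capsids, was at 4.41 and 3.69. TRIM22, an interferon-induced repressor of HIV transcription, was at 3.72 and 3.00. Per kilobase of exon, these members lay under the median level of all detected protein-coding genes. That median was 4.82 in the knockdown and 4.27 in the inhibitor experiment. The exons of TRIM22 cover 12556 bases, but its canonical transcript has 2888. With the latter length TRIM22 was among the 12 highest members, so its place under the median depends on the length used. TRIM26, a regulator of the interferon response encoded in the major histocompatibility complex, was at 3.32 and 2.69. TRIM34, a capsid-binding relative of TRIM5, was at 1.94 and 2.09, but shares 97.4% of its 31-base words with the readthrough gene TRIM6-TRIM34, so reads may have been divided between them. TRIM6, which makes free ubiquitin chains in interferon signaling, was low, with base means of 20.1 and 32.6 and levels of 0.125 and 0.200. TRIM6 shares 33.3% of its 31-base words with TRIM6-TRIM34, so its reads may also have been divided. TRIM69, an inhibitor of rhabdovirus growth, was the lowest of the list at 0.0760 and 0.0977.

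The 4 members of the TIF1 group were also all detected. Apart from TRIM28, TRIM24, a coregulator of nuclear receptors, had levels of 8.90 in the knockdown and 8.26 in the inhibitor experiment. TRIM33, a ligase that acts on SMAD signaling, was at 5.84 and 3.94. TRIM66, which lacks the RING finger, was at 0.988 and 1.14. TRIM28 thus stood at one end of the group's range and TRIM66 at the other.

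The other structural groups were detected in part. Of 7 members with a COS box, which binds microtubules, 3 were detected, namely TRIM36, TRIM9 and TRIM46, and the highest was TRIM36 with base means of 527 and 385. Of 4 members with NHL repeats, TRIM71 and TRIM3 were detected. TRIM71 (LIN41), an RNA-binding stem cell factor and a let-7 target, had base means of 1623 and 762, while TRIM3 was at 82.2 and 104. TRIM2 (2.00 and 4.27) and TRIM32 (0.118 and 0.438) were under the minimum. All 5 members with an unusual single C-terminal domain or membrane anchor were detected, led by TRIM13, an endoplasmic reticulum ligase, at 1733 and 2189 and by TRIM37, a centrosome regulator, at 1101 and 807. Of 6 members without a RING finger, 5 were detected, and TRIM29 (0.381 and 1.04) was not.

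None of the 4 muscle members was detected. These are TRIM54, TRIM55 and TRIM63, the MuRF ligases of the sarcomere, and TRIM72, a membrane repair protein, and their highest base means were 4.88 in the knockdown and 9.44 in the inhibitor experiment, both for TRIM72. Of 18 members listed as recent duplicates or their close relatives, TRIM73 alone was detected (22.0 and 33.0) and 12 were at 0 in both experiments. TRIM73 shares 95.3% of its 31-base words with TRIM74 (7.19 and 5.46), so these values are uncertain. In all, 15 members shared at least 50% of these words with another member, 5 of which were detected in either experiment, and low values of such copies depend on how reads that fit several genes were divided. Exons of 29 members overlapped those of another gene, and the library kit did not mark strand, so reads of overlapping genes cannot be told apart.

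Many members lie next to one another in the genome. With a gap of up to 500000 bases between genes, 36 members fell into 10 clusters. The cluster of TRIM6, TRIM6-TRIM34, TRIM34, TRIM5 and TRIM22 (chr11:5596109-5938619) had all 5 members detected in the knockdown and 4 in the inhibitor experiment. On the same chromosome, none of 7 members was detected in the cluster of TRIM77, TRIM49, TRIM64 and their copies (chr11:89710299-90042025), where the highest base mean was 0.371. In the major histocompatibility complex (chr6:30102897-30346854), TRIM26, TRIM39 and the readthrough gene TRIM39-RPP21 were detected, whereas TRIM10, TRIM15, TRIM31 and TRIM40 were at 0 in both experiments. TRIM39-RPP21 shares 73.0% of its 31-base words with TRIM39, so reads may have been divided between them. TRIM7, TRIM41 and TRIM52 on chromosome 5 (chr5:181193924-181261150) were each detected in at least 1 experiment. Members of a cluster are neighbors and often copies of one another, and so are not independent.

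The promoters of detected and undetected members were then compared. RefSeq promoters were found for 59 of the 77 members, and among those without an entry are TRIM28, TRIM8 and TRIM22. The ratio of observed to expected CpG had a median of 0.741 in 31 members detected in both experiments and of 0.177 in 26 members under the minimum in both. Over all protein-coding genes the medians were 0.842 for 9674 detected genes and 0.392 for 4919 genes under the minimum. The medians of the members were thus the lower ones in both states, without a test. Members under the minimum include near-identical copies, such as TRIM49 (0.0848) and TRIM49C (0.0863), which are not independent. Some detected members had CpG-poor promoters, as TRIM34 at 0.191 and TRIM21 at 0.290.

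The ISRE letters shown above were present in 10 of 59 members' promoters (16.9%), against 3.65% of 27305 promoters of the same length. Among members detected in both experiments they were in 8 of 31 (25.8%), namely TRIM14, TRIM21, TRIM44, TRIM5, TRIM16, TRIM26, TRIM34 and TRIM69, against 2.85% of detected protein-coding genes. Of 26 members under the minimum, TRIM2 and TRIM64C held them, against 3.98% of protein-coding genes under the minimum. Of the antiviral list, 10 members have a promoter entry and 6 held the letters, whereas TRIM6, TRIM25, TRIM38 and TRIM56 did not. The core of the gamma interferon activation site, searched as TTC and GAA with any 3 bases between them, was found in 10 of 59 members (16.9%) against 7.88% of all promoters. It was in 2 of 31 detected members and in 8 of 26 under the minimum, of which 5 have a near-identical copy, against 6.21% of detected protein-coding genes and 8.40% of those under the minimum. No statement on binding or on response to interferon follows from these matches.

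The levels of the family in the knockdown and inhibitor experiments were then set side by side. Across the 42 members detected in both, which share one cell line and the same gene lengths, levels had a rank correlation of 0.971. The median ratio of the inhibitor to the knockdown level was 0.932 over members and 0.975 over all 15383 genes detected in both. The ratio was under 1 in 24 of 42 members (57.1%) and in 53.1% of all genes. It lay within 1.5-fold in 33 members (78.6%), against 76.3% of all genes. On these counts the family lay near the background of all genes.

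A difference of more than 2-fold was found in 1 of 42 members, against a background of 6.66% of all genes in either direction and 4.25% in the lower direction. This member was TRIM71, on chromosome 3, with 1623 in the knockdown and 762 in the inhibitor experiment, a ratio of 0.46. TRIM38 (0.55) and TRIM62 (0.55) came next below it, and the highest ratios were those of TRIM46 (1.63), TRIM6 (1.60) and TRIM65 (1.56). Of these, TRIM46 and TRIM6 had base means under 50 in both experiments. With 1 pooled value per experiment no test was possible.

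Within the groups, the ratio was under 1 in 8 of 11 antiviral members, against 53.1% of all genes. Its median was 0.812, against 0.975 over all genes, with a range from 0.553 for TRIM38 to 1.60 for TRIM6 and no test. The list was chosen with earlier results of these data known, and the experiments differ in treatment, time, vector and normalization. TRIM25 (0.763), TRIM21 (0.742) and TRIM14 (0.797) were among the lower ones, and TRIM56 was at 0.994. In the TIF1 group TRIM28 (1.18) and TRIM66 (1.15) had higher levels in the inhibitor experiment and TRIM24 (0.928) and TRIM33 (0.675) lower ones. UBE2L6 and UBA7, the interferon-induced E2 and E1 enzymes of the ubiquitin-like modifier ISG15, had ratios of 0.705 and 0.789, and ISG15 itself was at 0.934. All 10 listed partners of the family in the ubiquitin pathway were detected. In the knockdown experiment their base means ran from 321 for UBE2D1 to 18581 for UBA1, the main E1 enzyme. Their median ratio was 0.974, and it was under 1 in 5 of the 10. UBE2V1 was also low at 0.795, and the highest ratios were those of UBE2N (1.28) and UBE2D2 (1.19).

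Of 5 listed relatives whose symbols do not start with TRIM, PML was high, with base means of 5981 and 5821. NB4 cells carry the PML-RARA fusion, and reads of the fusion and of intact PML cannot be told apart in a gene count. MID1, a COS-box ligase, was at 15.9 and 16.9. MID2, MEFV and BSPRY were under the minimum in both experiments.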

How the data were processed

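RNA was sequenced from NB4 cells as poly(A) libraries made with a kit that does not mark strand. Per the submitters' processing notes, reads were handled with bcl2fastq 2, FastQC 0.11.5 and STAR 2.7 on hg38, and RSEM and DESeq2 were named as well. The annotation release is not given in the sources used here. The deposited values used are base means, a signal in which the authors scaled read counts by a size factor per library and averaged all libraries of an experiment. The knockdown table repeats this column, with equal values in 60603 genes. The tables also hold the authors' comparisons (log2 fold change, its standard error, test statistic, p-value and adjusted p), which were not used. With no counts per library analysed here, the planned test between groups could not be made, and all values are descriptions.

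Base means were divided by their sum per experiment and by the exon union of GENCODE release 44 (GRCh38). All 77 members and 60306 of 60603 genes matched by identifier. Detection required a base mean of 10. Near-identical copies shared 50% of 31-base words. Python 3.11.15, pandas 2.3.3, numpy 2.4.6 and biopython 1.88 were used. The code that counts folds was run on simulated data with planted changes, which checks the code alone and says nothing about these experiments. Members and lists were chosen with earlier results of these data known. Genes were named by rule: the 12 highest levels, members over 2-fold different that reached 50 in either experiment, the antiviral and TIF1 lists, and the highest of each other list. Other members, among them TRIM2, TRIM3, TRIM7, TRIM29, TRIM32, TRIM37, TRIM46 and TRIM62, were named after their values were seen. The alternatives were other minimums, scalings, lengths and folds. Some marker genes are not reported here.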

Additional observations from a re-analysis of the deposited data

How the results depend on the processing

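With a minimum base mean of 5 in place of 10, 45 members were detected in the knockdown and 46 in the inhibitor experiment, and with 50 these were 35 and 36. Without near-identical copies they were 38 and 39. Without readthrough genes and the member listed as a pseudogene, an alternative chosen after seeing the data, they were 40 and 41. The median level of detected members was 4.29 and 2.79 over protein-coding genes alone and 5.46 and 3.67 without the 100 highest genes. Of the 12 highest members, 9 were also among the 12 highest when levels were not divided by length (with TRIM41, TRIM13 and TRIM33), and 9 with the canonical transcript's length (with TRIM41, TRIM22 and TRIM27), the latter chosen after seeing the data. Scaling by the median ratio left 1 member over 2-fold different, TRIM71. At 1.5-fold the count was 9, with TRIM46, TRIM6 and TRIM65 higher in the inhibitor experiment and TRIM62, TRIM44, TRIM16, TRIM71, TRIM23 and TRIM38 lower, against 23.7% of all genes (10.1% higher and 13.6% lower); the smaller fold itself makes the count larger.

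No paired analysis was possible because the values used are means over all libraries and carry no replicate numbers. For the same reason the tests with other tools and without each replicate were not run. Spread, depth per library and the difference between treated and control cells cannot be seen in these values.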
